A study of Mus musculus with 24 samples.

Results

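Rab genes encode small GTPases that mark the membranes of a cell and direct the traffic of vesicles between them. They were taken as every gene whose single symbol in the probe annotation is Rab followed by a number and at most 1 letter, which left out regulators such as Rab3gap1, Rab11fip1 and Rab3il1. The rule gave 59 genes of the 19938 measured on the larger array platform, and the same 59 of the 18194 measured on the smaller one. The cells came from a differentiation in vitro in which mouse embryonic stem cells (ES) pass through neuronal progenitors (NP) to terminal neurons (TN). Of the 24 Affymetrix arrays, 18 carry the strain label Black Agouti 129 and form 6 groups of 3: ES and NP labelled RESTko (REST knock-out) or RESTwt (wildtype), and TN labelled RESTko or RESThet (heterozygous knock-out). The other 6 are wildtype, labelled mixed 129Sv-C57Bl/6, with 2 arrays per stage on the smaller platform. Title prefixes 1 and 2, whose meaning is not given, separate the ES and NP arrays of the 129 strain from its TN arrays, so a difference between NP and TN cannot be told apart from that prefix.

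A Rab protein is active when it carries GTP and inactive when it carries GDP. Exchange factors load the GTP, GTPase-activating proteins end the active state, prenyl groups anchor the protein in the membrane, and a dissociation inhibitor (GDI) returns the inactive form to the cytosol. In neurons the Rab3 proteins sit on synaptic vesicles, and Rab27 proteins on secretory granules. REST is a repressor that holds neuronal genes silent outside neurons, and the study compared cells with and without it along the path to neurons.

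Values are log2 signals of probe sets as deposited, differences are on that scale with the standard error (SE) of a linear model fitted over all genes with limma, and a gene was called at a Benjamini-Hochberg adjusted p under 0.05. A signal depends on its probes, so levels of different genes are not compared. The files hold no detection calls, and low signals may lie near background, such as those of Rab3c in ES RESTwt, Rab27b at ES and in NP RESTko, Rab32 and Rab42. Differences from such levels may understate the change, and no fold is given for them. The labels name biological replicates a to c but not separate cultures, so p-values measure the spread between these arrays only. All values are of bulk RNA, in which fewer cells of a type and less RNA per cell cannot be told apart. Arrays of a group on the larger platform correlated with Pearson's r of 0.992 to 0.998 over genes.

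The Rest probe set did not separate the labelled genotypes at every stage, and the deleted part of the gene is not given in the sources used here. Its mean was 8.61 ± 0.07 in RESTko and 8.96 ± 0.02 in RESTwt arrays at ES, 7.47 ± 0.09 and 7.48 ± 0.03 at NP, and 7.37 ± 0.09 in RESTko and 7.03 ± 0.03 in RESThet arrays at TN (SD, n = 3 each). A probe set outside the deleted part checks nothing, and genotype names below are those of the labels. Marker lists moved with the labels too. The array means of 12 neuron markers were 5.96 to 6.06 in RESTko and 5.29 to 5.37 in RESTwt arrays at ES, and 8.03 to 8.36 and 7.20 to 7.90 at NP. Of these 12 markers, 6 were called higher in RESTko at ES and 8 at NP, against 5.19% and 4.32% of all genes. Dcx and Slc17a6 at ES and Slc17a6 at NP lay below the 25th percentile of all genes. The part of these markers in the Rab results was not tested.

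**Figure D1:**
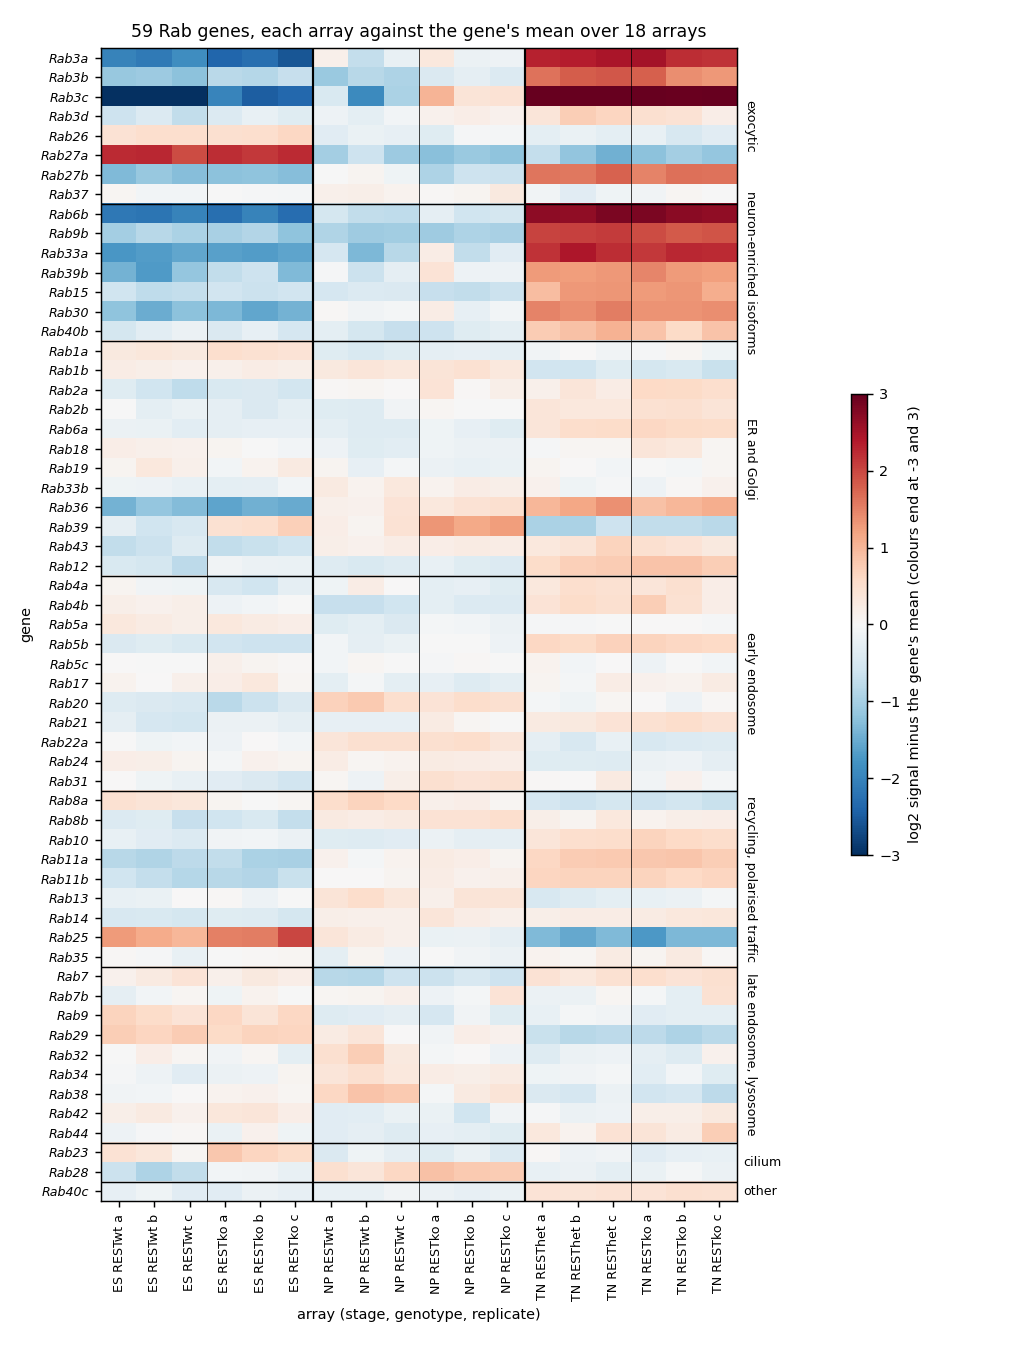
Log2 signal of the 59 Rab genes on the 18 arrays of the 129 strain, each gene minus its own mean over the arrays, with genes grouped by role and arrays by stage, genotype and replicate. The neuron-enriched isoforms are high on all 6 TN arrays, Rab27a is high on the 6 ES arrays, and Rab39 is high on the 3 NP RESTko arrays.

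Across stages, the exocytic Rab genes showed the largest spread. Rab3c, a Rab3 isoform of regulated exocytosis, gave 3.24, 3.46 and 3.60 on the ES RESTwt arrays, 6.37, 4.90 and 5.87 on the NP RESTwt arrays and 9.82, 9.86 and 9.93 on the TN RESThet arrays. No array of one stage overlapped those of the next. The step from ES to NP was 2.28 (SE 0.25, limma adjusted p = 2.72e-07) and that from NP to TN 4.16 (SE 0.25, adjusted p = 4.46e-11). In the mixed strain, whose Rab3c probe set is another one, the arrays gave 3.34 and 3.13 at ES, 4.01 and 4.20 at NP and 10.02 and 9.96 at TN. The step into NP was smaller there (0.87) and the step into TN larger (5.89), both called, and the difference between the platforms was not tested.

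Rab3a, the most abundant Rab3 of brain synapses, gave 4.36, 4.25 and 4.49 on the ES RESTwt arrays, 6.51, 5.66 and 6.14 at NP, and 8.68, 8.72 and 8.82 on the TN RESThet arrays. In these cells it was higher at each later stage without overlap, by 1.74 into NP and 2.64 into TN (adjusted p = 5.28e-08 and 1.02e-10, limma). In the mixed strain the Rab3a probe set used gave 7.11 and 7.23 at ES, 7.11 and 7.06 at NP and 8.63 and 8.64 at TN. A second probe set there had means of 5.31 at ES, 6.33 at NP and 10.47 at TN. Rab3b followed another course. Its RESTwt arrays gave 5.0, 5.05 and 4.91 at ES and 5.02, 5.30 and 5.20 at NP, and its TN RESThet arrays 7.76, 7.94 and 7.99. The step into NP did not pass the test (0.19, adjusted p = 0.142), and that into TN was 2.72 (SE 0.11, adjusted p = 1.57e-13, limma). Rab3d, an isoform of secretory gland cells, rose by 0.41 and 0.75 at the 2 steps. Scaling the arrays to equal quantiles ended the first of these calls (0.18, adjusted p = 0.180).

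The Rab27 pair ran in opposite directions. Rab27a, which docks secretory granules and lysosome-related organelles, gave 8.25, 8.28 and 7.97 on the ES RESTwt arrays and 5.0, 5.38 and 4.93 at NP. All 3 arrays at ES lay far above all 3 at NP, and the level fell by 3.06 (SE 0.15, adjusted p = 3.04e-12, limma). It fell by 3.39 in RESTko cells and by 2.85 in the mixed strain, where the arrays gave 6.08 and 5.94 at ES and 3.18 and 3.14 at NP. No further step into TN was called. Its paralog Rab27b rose in RESTwt cells from 3.24, 3.43 and 3.28 at ES to 4.55, 4.65 and 4.43 at NP, and the TN RESThet arrays gave 6.17, 6.14 and 6.33. The steps were 1.23 and 1.67 (adjusted p = 1.13e-09 and 8.75e-12, limma). The Rab27b probe set used for the mixed strain gave 0.14 and -0.30 for these steps, neither called. The second depended on array and probe set: it was -0.67 without NP array b, and 0.76 as the mean over the 4 probe sets (adjusted p = 0.00181, limma). Only the probe set used had a lower mean at TN than at NP. The others had means of 2.96, 2.44 and 2.61 at NP and 4.10, 2.77 and 4.47 at TN. Rab26, of secretory and synaptic vesicles, fell into NP by 0.75 in RESTwt and by 0.87 in the mixed strain, and Rab37, of secretory granules, fell by 0.33 into TN.

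All 7 measured neuron-enriched isoforms were called higher at TN than at NP, in the RESThet/RESTwt comparison, in RESTko cells and in the mixed strain. This list was chosen with earlier results of these data known, so the count only describes these genes. The median difference of the 7 was 1.64, 1.92 and 2.86, beside 0.14, 0.13 and -0.09 over all genes tested, of which 43.2%, 41.8% and 21.7% were called higher. Markers of neurons and of other cells rose at this step too. In the RESThet/RESTwt comparison 11 of 12 neuron, 9 of 10 fibroblast and 5 of 6 astrocyte markers were called higher, and 1 fibroblast and 1 astrocyte marker lower. The array means went from 7.20 to 7.90 at NP to 10.34 to 10.51 at TN for the neuron markers, from 5.56 to 6.10 to 8.20 to 8.54 for the fibroblast markers, and from 5.04 to 5.18 to 6.54 to 6.95 for the astrocyte markers. At NP Slc17a6, Ogn, Gfap, Aqp4, Aldh1l1 and S100b lay below the 25th percentile, and at TN none of these markers did. Their part in the Rab steps was not tested. Rab6b, the brain form of the Golgi protein Rab6, gave 6.89, 6.67 and 6.65 on the NP RESTwt arrays and 10.10, 10.08 and 10.23 on the TN RESThet arrays. That is a difference of 3.40 (SE 0.10, adjusted p = 2.6e-15, limma), with no overlap, and it was 5.10 in the mixed strain (adjusted p = 4.64e-07). Rab9b, a paralog of the late endosome protein Rab9, stayed between 4.40 and 4.78 on all 12 ES and NP arrays and reached 7.45 to 7.71 on the 6 TN arrays. Its step into TN was 3.06 in the RESThet/RESTwt comparison, 2.89 in RESTko and 3.42 in the mixed strain, each called.

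Rab33a, a Golgi and axonal vesicle Rab, gave 5.23, 4.38 and 4.90 on the NP RESTwt arrays and 7.91, 8.16 and 7.96 on the TN RESThet arrays. The step was 3.17 (SE 0.19, adjusted p = 4e-11, limma). Rab39b, mutated in an X-linked intellectual disability, rose by 1.59, Rab15, of recycling endosomes, by 1.64, Rab30, of the Golgi, by 1.51, and Rab40b, whose SOCS box joins it to a ubiquitin ligase, by 1.39. In the mixed strain Rab40b rose by 0.82, Rab15 by 1.60, Rab30 by 1.26 and Rab39b by 2.86. From ES to NP 5 of the 7 rose in RESTwt cells, against 31.0% of all genes, and Rab9b and Rab40b were not called (-0.08 and -0.16). In the mixed strain 3 rose, against 19.9% of all genes, and 2 fell, against 19.0%. The call of Rab15 at that step (0.24) turned to -0.11 after quantile scaling, not called, and ended without RESTwt array b or c at either stage, at 0.21 and 0.23 without ES b and c and 0.23 without NP b or c.

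**Figure D2:**
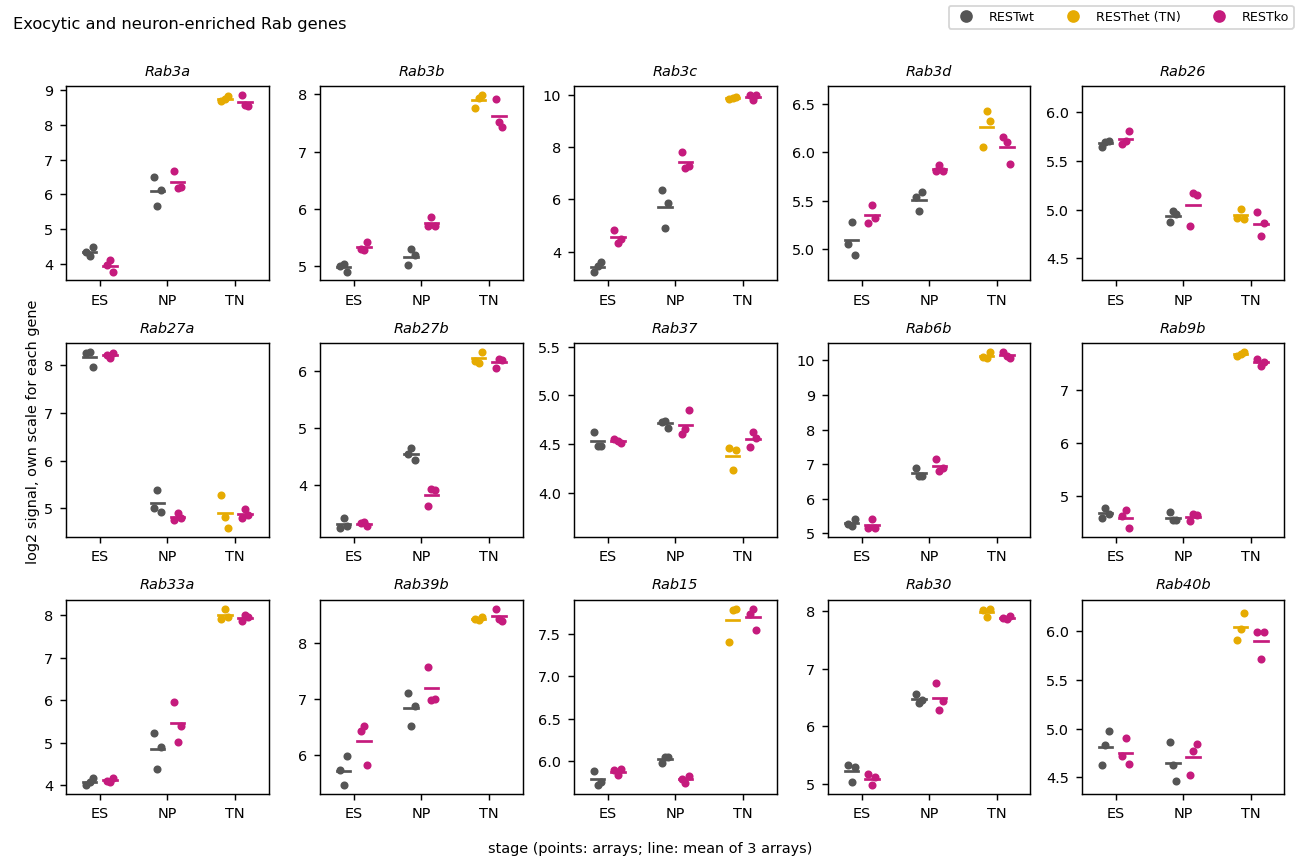
Log2 signal of the 8 exocytic and 7 neuron-enriched Rab genes by stage, with a point for each of 18 arrays of the 129 strain, a line for the mean of 3 arrays and its own vertical scale for each gene. Rab3c RESTko arrays lie above the RESTwt arrays at ES and NP and together with the RESThet arrays at TN, and Rab27b RESTko arrays lie below the RESTwt arrays at NP.

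Stage differences were common among all genes. From ES to NP in RESTwt cells 43 of the 59 Rab genes were called, 28 higher and 15 lower, against 67.1% of all genes tested (31.0% higher, 36.1% lower). In RESTko cells they were 42 (29 higher, 13 lower, against 66.0%, of which 32.2% higher and 33.9% lower), and in the mixed strain 29 (18 higher, 11 lower, against 38.9%, of which 19.9% higher and 19.0% lower, and 17 without array b of ES). From NP to TN the counts were 47 in the RESThet/RESTwt comparison (32 higher, 15 lower, against 73.1%, of which 43.2% higher and 29.9% lower), 45 in RESTko (31 higher, 14 lower, against 71.0%, of which 41.8% higher and 29.2% lower) and 38 in the mixed strain (25 higher, 13 lower, against 50.8%, of which 21.7% higher and 29.1% lower). Scaling to equal quantiles moved the median of all genes in the first of these TN steps from 0.138 to -0.063 and in RESTko from 0.127 to -0.051. The split over all genes then turned from 8616 higher and 5954 lower to 6084 and 7718 in the first, and from 8328 and 5819 to 6064 and 7329 in RESTko. The Rab genes then split into 28 higher and 17 lower, and 30 and 19, and all 7 neuron-enriched isoforms were still called higher.

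Rab genes of general traffic moved at both steps as well. Rab36, a Golgi and late endosome Rab, gave 4.21, 4.48 and 4.32 on the ES RESTwt arrays and 5.78, 5.76 and 6.04 at NP, a rise of 1.53 without overlap (SE 0.10, adjusted p = 3.07e-10, limma). The recycling Rab11a rose by 0.89 into NP. Rab7, which takes late endosomes to lysosomes, fell by 1.04 into NP and rose by 1.18 into TN. Among the early endosome genes Rab20 rose by 1.09 into NP, Rab4b fell by 0.82, and Rab22a fell by 0.76 into TN. Rab12, which sends recycling receptors to lysosomes, rose by 1.09 into TN. Rab29, which recruits the kinase LRRK2, fell by 0.97 at that step and by 2.55 in the mixed strain. Rab25, the epithelial member of the Rab11 group, fell at each step in each course, with differences of -0.87 and -1.65 in the control cells of the 129 strain and -1.27 and -1.63 in the mixed strain. The array means of 12 endoderm and epithelium markers fell into TN as well, from 7.38 to 7.92 on the NP RESTwt arrays to 5.06 to 5.26 on the TN RESThet arrays. Of the 12, 11 were called lower, against 29.9% of all genes. Their part in the Rab25 result was not tested.

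Both Rab1 forms, which carry vesicles from the endoplasmic reticulum to the Golgi, had steps of their own. Rab1a gave 11.36, 11.41 and 11.37 on the ES RESTwt arrays and 10.70, 10.62 and 10.70 at NP, a fall of 0.71 without overlap (adjusted p = 1.99e-08, limma). Rab1b did not pass the test at that step (0.14) and fell by 0.82 into TN, from 9.23, 9.30 and 9.26 to 8.38, 8.35 and 8.59. Rab6a, the general Golgi form and named here after its values were seen as the paralog of Rab6b, rose by 0.84 into TN and was not called into NP (-0.12). Rab43, of the Golgi, rose by 0.77 into NP and by 0.98 in the mixed strain, where the mean over its probe sets gave 0.26, not called.

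Among genes of polarised and late traffic, Rab8b, the paralog of Rab8a, rose into NP by 0.74 in RESTwt, by 1.04 in RESTko and by 1.22 in the mixed strain. Its RESTwt arrays gave 7.85, 7.90 and 7.56 at ES and 8.52, 8.47 and 8.53 at NP, without overlap. Rab9, which returns receptors from late endosomes to the Golgi, fell into NP by 0.87 in RESTwt and by 0.86 in RESTko. It lies on the X chromosome. The X genes at or above the median mean signal had median steps of -0.36 in RESTwt and -0.22 in RESTko, and their part in the Rab9 step was not tested. Rab13, of tight junctions, fell by 0.80 into TN. Rab34, of lysosome positioning and ciliogenesis, rose by 0.56 into NP and fell by 0.48 into TN, and in the mixed strain it fell by 1.48, from 9.19 and 8.78 at NP to 7.74 and 7.28.

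Rab28, a Rab of cilia and photoreceptors, peaked at NP in all courses. It gave 6.95, 6.68 and 6.86 on the ES RESTwt arrays, 8.07, 7.97 and 8.21 at NP and 7.37, 7.42 and 7.31 on the TN RESThet arrays. The groups did not overlap, with a step of 1.25 up (adjusted p = 3.47e-10) and then 0.71 down (fell by 0.71, adjusted p = 4.86e-07, limma). In the mixed strain the NP arrays both gave 8.64, against 7.19 and 7.18 at ES and 7.79 and 7.18 at TN. Rab39, a Golgi and endosome Rab and the paralog of Rab39b, rose by 0.68 into NP in RESTwt cells and fell by 1.07 into TN, the reverse of the Rab39b course at that step.

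**Figure D3:**
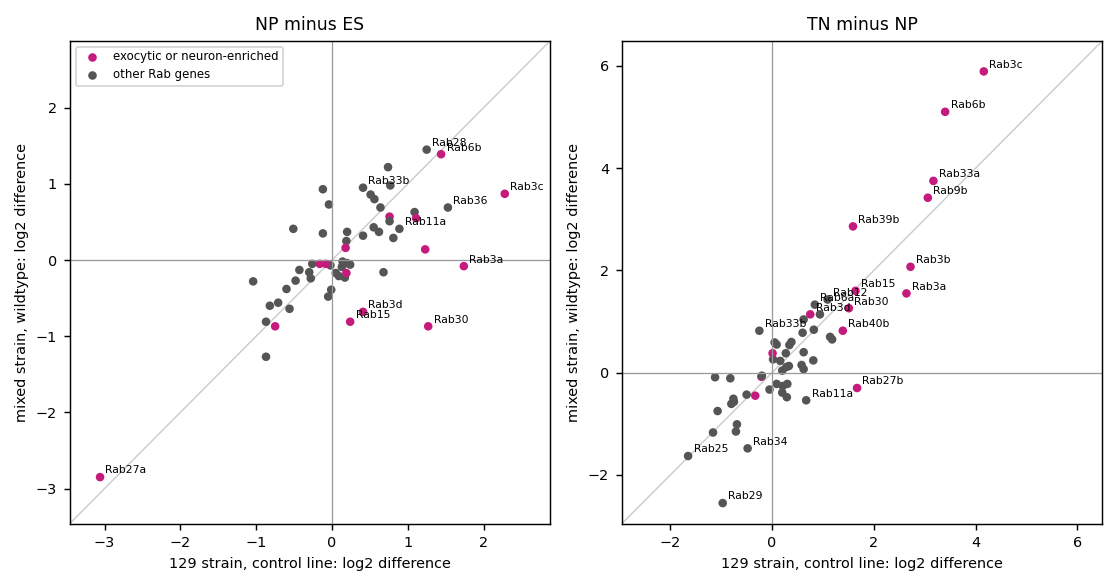
Stage steps of the 59 Rab genes in the control cells of the 129 strain (horizontal, log2 difference) against those in wildtype cells of the mixed strain (vertical), for NP minus ES on the left and TN minus NP on the right, with a grey line of equality. Rab3c and Rab6b have the largest positive steps into TN on both axes, and Rab27a the largest negative step into NP. Rab27b lies near 0 in the mixed strain by the probe set used, while its other probe sets there rose into TN.

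The steps of the 129 and the mixed strain share no arrays. Over the 59 genes their Pearson's r was 0.71 for the step into NP and 0.89 for the step into TN, beside 0.77 and 0.83 over the 16553 genes on both platforms. These values are descriptions across genes, which share arrays and are not independent. Of 26 Rab genes called in both at the first step, 23 had the same sign, and of 36 at the second, 34. The exceptions were Rab15, Rab30 and Rab3d at the first step, and Rab11a and Rab33b at the second. For Rab30 the mixed-strain probe set with the highest mean fell by 0.87 into NP, while a second probe set had group means of 3.26 at ES, 3.43 at NP and 6.88 at TN. The first call ended without array a or b of ES or array a of NP, at -0.94, -0.81 and -0.60. For Rab11a, the recycling endosome Rab, a second probe set rose in its means from 7.37 at NP to 8.15 at TN, against a fall of 0.54 by the one used, a call that ended without NP array b (-0.46) or TN array a (-0.42). The 4 Rab3d probe sets all had lower means at NP than at ES, and the call ended without ES array b (-0.47) or NP array a (-0.57). Rab33b, a Golgi Rab, fell by 0.25 into TN in the control cells, a call that ended without RESTwt c (-0.22) or RESThet b (-0.19), and rose by 0.82 in the mixed strain.

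Between genotypes at ES, 9 of 59 Rab genes were called, 15.3% against 9.24% of all genes tested. Of these 6 were higher in RESTko (all genes 5.19%) and 3 lower (4.05%). At NP 13 were called, against 8.03% of all genes, 8 higher (4.32%) and 5 lower (3.71%). At TN 0 were called by limma, against 1.16% of all genes (0.356% higher, 0.802% lower), while 8 Rab genes had an unadjusted p under 0.05. The arrays of the 2 genotypes did not overlap for 19 Rab genes at ES (32.2%, against 29.4% of all genes), 23 at NP (39.0%, against 21.9%) and 14 at TN (23.7%, against 16.0%). After centring of each chromosome 7 were called higher and 0 lower at ES by limma, and 5 and 5 at NP, while quantile scaling gave 7 and 2 at ES. The NP count fell to 7 without RESTko array a and to 8 without RESTwt array b. The shares of all genes under these alternatives are not given, so these counts describe the Rab calls alone. The median difference of the 59 was -0.001 at ES, 0.075 at NP and -0.004 at TN, beside -0.026, 0.009 and -0.016 over all genes.

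**Figure D4:**
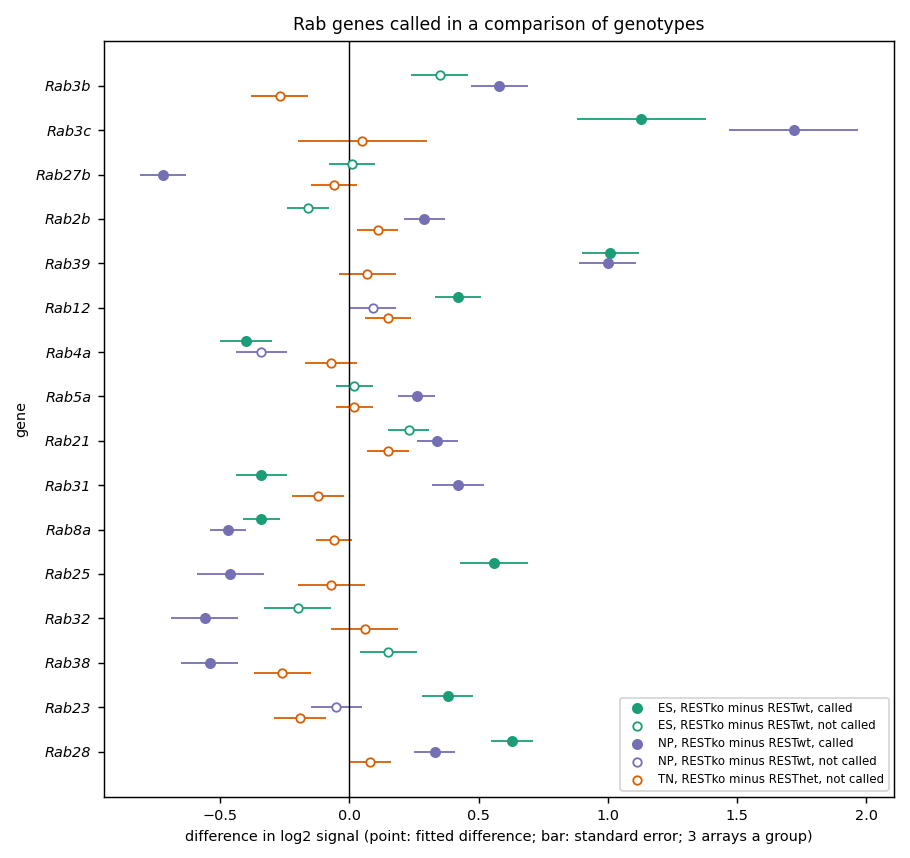
Fitted differences in log2 signal between genotypes with their standard errors for the 16 Rab genes called at ES or NP, for ES (RESTko minus RESTwt), NP (RESTko minus RESTwt) and TN (RESTko minus RESThet), with filled points for called differences. Rab3c and Rab39 have the largest positive differences at ES and NP, Rab25 and Rab31 lie on opposite sides of 0 at these stages, and no TN point is filled.

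Rab3c, Rab39 and Rab28 were the genes called higher in RESTko cells at both ES and NP. Rab3c gave 4.85, 4.35 and 4.47 on the RESTko arrays at ES against 3.24, 3.46 and 3.60 on the RESTwt arrays. At NP the values were 7.83, 7.21 and 7.26 against 6.37, 4.90 and 5.87, and at TN 9.99, 9.79 and 9.99 against 9.82, 9.86 and 9.93 in RESThet. The genotypes did not overlap at ES and NP and did at TN. The difference was 1.13 at ES (SE 0.25, adjusted p = 0.00721, limma), 1.72 at NP (3.30-fold, SE 0.25, adjusted p = 0.000295) and 0.05 at TN (adjusted p = 0.972). At NP the highest array was RESTko a and the lowest RESTwt b, which also had the highest and lowest mean of the 12 neuron markers, 8.36 and 7.20.

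Rab39 gave 5.64, 5.69 and 5.90 in RESTko against 4.91, 4.58 and 4.70 in RESTwt at ES. At NP it gave 6.51, 6.32 and 6.42 against 5.38, 5.25 and 5.60, and at TN 4.43, 4.44 and 4.37 against 4.23, 4.23 and 4.56. All RESTko arrays were higher at ES and NP, by 1.01 and 1.00 (SE 0.11 each, adjusted p = 1e-05 and 1.51e-05, limma), and the groups overlapped at TN (0.07, adjusted p = 0.885). Both calls held in every one of 15 alternative settings, among them the omission of each array. From NP to TN the level fell by 2.00 in RESTko cells and by 1.07 in the comparison of RESThet with RESTwt.

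Rab28 gave 7.51, 7.50 and 7.37 in RESTko against 6.95, 6.68 and 6.86 in RESTwt at ES, a difference of 0.63 (SE 0.08, adjusted p = 7.79e-05, limma). At NP the values were 8.49, 8.38 and 8.36 against 8.07, 7.97 and 8.21, a difference of 0.33 (adjusted p = 0.0211). The genotypes overlapped at neither stage. The NP call ended without RESTko array a (0.29, adjusted p = 0.109) or RESTwt array b (0.27, adjusted p = 0.120), and the ES call in none of 15 settings.

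The 250 bases before the annotated start of these 3 genes are shown because the genes were called in the same direction at 2 stages. They are from RefSeq on GRCm38.p6, all on the minus strand, 5′ to 3′ of the gene, with CpG dinucleotides in capitals: Rab3c at chr13:110280207-110280456, Rab39 at chr9:53706233-53706482 and Rab28 at chr5:41708180-41708429.
Rab3c: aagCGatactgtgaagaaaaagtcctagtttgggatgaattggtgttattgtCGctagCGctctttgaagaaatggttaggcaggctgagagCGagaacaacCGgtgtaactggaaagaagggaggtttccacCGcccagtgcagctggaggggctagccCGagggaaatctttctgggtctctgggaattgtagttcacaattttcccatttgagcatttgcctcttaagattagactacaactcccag
Rab39: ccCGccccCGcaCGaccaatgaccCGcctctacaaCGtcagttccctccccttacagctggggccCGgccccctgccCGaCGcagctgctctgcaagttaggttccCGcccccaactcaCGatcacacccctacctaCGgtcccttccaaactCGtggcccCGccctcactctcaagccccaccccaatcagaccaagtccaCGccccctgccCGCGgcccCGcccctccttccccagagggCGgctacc
Rab28: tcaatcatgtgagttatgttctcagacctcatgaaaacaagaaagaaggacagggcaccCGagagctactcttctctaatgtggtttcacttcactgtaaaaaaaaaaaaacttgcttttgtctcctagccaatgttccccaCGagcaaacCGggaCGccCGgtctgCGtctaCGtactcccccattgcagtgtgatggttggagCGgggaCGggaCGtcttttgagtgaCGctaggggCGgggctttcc
These windows hold 7, 18 and 12 CpG dinucleotides, more than 53.7%, 78.3% and 66.5% of the 32851 windows of all genes with the same length. The median was 15 over the 60 windows of the 48 Rab genes with an entry and 6 over all windows. Letters that resemble parts of the REST element, TTCAGCACC and GGACAGCGC, were searched on both strands. They were found in 0.301% and 0.304% of all windows and in none of the 48 Rab genes. The element can lie far from a start, so this says only that these letters are not in these windows.

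The other genes called higher in RESTko at ES were of several compartments. Rab12 gave 8.19, 8.11 and 8.10 against 7.84, 7.78 and 7.51, a difference of 0.42 without overlap (SE 0.09, adjusted p = 0.00403, limma). Rab23, which restrains Hedgehog signalling at the cilium, gave 8.68, 8.52 and 8.42 against 8.31, 8.23 and 7.93, a difference of 0.38 (adjusted p = 0.0270). The call of Rab23 ended without RESTko a (0.31), RESTko b (0.40) or RESTwt c (0.27). Rab25 gave 7.10, 7.12 and 7.57 against 6.85, 6.68 and 6.57, a difference of 0.56 (SE 0.13, adjusted p = 0.00760, limma). The array means of the 12 endoderm and epithelium markers were 6.56 to 6.69 in RESTko and 6.03 to 6.26 in RESTwt at ES. Of these 12 markers 4 were called higher, against 5.19% of all genes, and Sox17 and Afp lay below the 25th percentile. Their part in the Rab25 difference was not tested.

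At NP Rab25 lay on the other side, at 5.38, 5.41 and 5.31 in RESTko against 5.95, 5.83 and 5.72 in RESTwt. It was lower by 0.46 without overlap (difference -0.46, SE 0.13, adjusted p = 0.0298, limma). This call ended on omission of any 1 of 5 of the 6 arrays, with values from -0.49 to -0.41, and held without RESTwt c. The endoderm and epithelium markers went the same way, at 7.12 to 7.20 against 7.38 to 7.92. Of the 12, 1 was called higher and 5 lower, against 4.32% and 3.71% of all genes. The interaction, the genotype difference at NP minus that at ES, was -1.03 (SE 0.18, adjusted p = 0.00248) and was called in all 21 settings tried. Interactions of this kind were called for 6 Rab genes, against 4.87% of all genes tested, 3 of them above 0 (2.31%) and 3 below (2.55%).

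**Figure D5:**
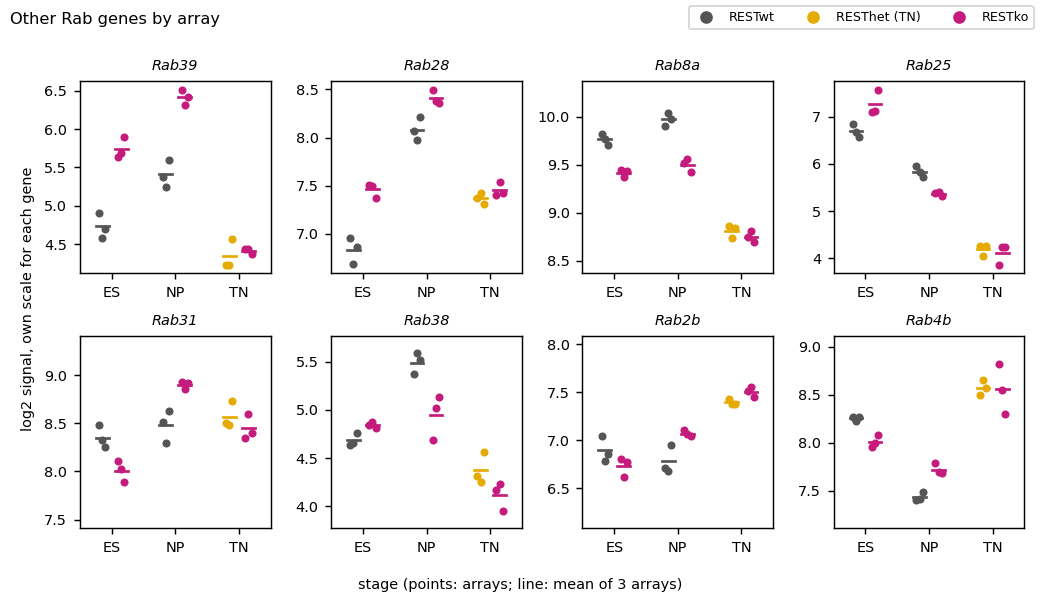
Log2 signal of 8 further Rab genes by stage, with a point for each of 18 arrays of the 129 strain, a line for the mean of 3 arrays and its own vertical scale for each gene. Rab39 RESTko arrays lie about 1.00 above RESTwt at ES and NP, Rab25 and Rab31 change sides between ES and NP, and Rab8a RESTko arrays lie below RESTwt at both.

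Rab31, which works between the trans-Golgi network and endosomes, changed sides in the opposite sense to Rab25. At ES it gave 8.11, 8.03 and 7.89 in RESTko against 8.48, 8.33 and 8.25 in RESTwt, and at NP 8.93, 8.86 and 8.92 against 8.51, 8.30 and 8.63. No arrays overlapped at either stage. The difference was -0.34 at ES (adjusted p = 0.0380) and 0.42 at NP (adjusted p = 0.0134), and the interaction 0.76 (SE 0.14, adjusted p = 0.00365, limma), called in all 21 settings. The ES call was the weakest of the 3. It ended without RESTko b (-0.35) or c (-0.28), without RESTwt a (-0.28) or b (-0.35), after quantile scaling (-0.32) and with a replicate block (-0.34, adjusted p = 0.0542). The NP call ended without RESTko a (0.41) or RESTwt b (0.33).

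Rab27b was called at NP and not at ES or TN. It gave 3.64, 3.93 and 3.92 in RESTko against 4.55, 4.65 and 4.43 in RESTwt, while the ES arrays lay between 3.24 and 3.43 and the TN arrays between 6.05 and 6.33 with overlapping genotypes. The NP difference was -0.72 (SE 0.09, adjusted p = 6.58e-05, limma), and the interaction with ES was -0.72 (SE 0.13, adjusted p = 0.00263). The steps into NP and TN were 0.51 and 2.32 in RESTko and 1.23 and 1.67 in the control cells, with the ES and NP RESTko levels possibly near background. The call at NP held in all 15 settings. Rab3b moved the other way at NP, at 5.70, 5.86 and 5.71 in RESTko against 5.02, 5.30 and 5.20 in RESTwt. It was higher by 0.58 without overlap (SE 0.11, adjusted p = 0.00267, limma), and at ES by 0.35, which did not pass the test (adjusted p = 0.0532). The ES difference of Rab3b passed after quantile scaling (0.43), chromosome centring (0.38) and array weights (0.32). It also passed without the dimmest 30% of genes and with the compared groups alone (0.35 each), and on omission of no single array.

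Rab38 and Rab32, a pair that serves melanosomes and other lysosome-related organelles, were both lower in RESTko at NP. Rab38 gave 4.69, 5.02 and 5.14 against 5.37, 5.59 and 5.52, a difference of -0.54 (adjusted p = 0.00473), and Rab32 gave 4.22, 4.30 and 4.13 against 4.75, 5.03 and 4.57, a difference of -0.56 (adjusted p = 0.0139, limma). In both the groups did not overlap. The Rab32 call ended without RESTko c (-0.52) or RESTwt b (-0.44). The interaction of Rab38 with ES was -0.70 (adjusted p = 0.0135). Of 6 melanocyte markers 0 were called at NP by limma, with array means of 3.81 to 3.83 in RESTko and 3.71 to 3.77 in RESTwt, and Dct, Tyr and Tyrp1 lay below the 25th percentile in all 6 groups of the 129 strain. Fibroblast markers moved with this comparison, at 5.27 to 5.61 in RESTko and 5.56 to 6.10 in RESTwt. Of 10 such markers 3 were called lower, against 3.71% of all genes. Lum and Ogn lay below the 25th percentile in RESTko, and Ogn in RESTwt. The part of the fibroblast markers was not tested.

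Smaller differences at NP were called in endosomal and early secretory genes. Rab21, an early endosome Rab that carries integrins, gave 8.94, 8.75 and 8.68 in RESTko against 8.45, 8.46 and 8.44 in RESTwt, higher by 0.34 (adjusted p = 0.0169, limma). Rab5a, which drives the fusion of early endosomes, was higher by 0.26 (9.94, 9.91 and 9.81 against 9.63, 9.69 and 9.57, adjusted p = 0.0234). Rab2b, of traffic between the endoplasmic reticulum and the Golgi, was higher by 0.29 (7.11, 7.06 and 7.04 against 6.71, 6.68 and 6.95, adjusted p = 0.0392). None of the 3 overlapped, but each call ended on omission of single arrays. They were RESTko a for Rab21 (0.26), RESTko a, RESTko b or RESTwt c for Rab5a (0.23, 0.24 and 0.23), and any array but RESTwt c for Rab2b (0.24 to 0.31). Rab2b and Rab4b, a recycling Rab of early endosomes, also had called interactions of 0.46 and 0.53 (adjusted p = 0.0343 and 0.0309). Both ended in most settings, 14 of 21 for Rab2b and 11 of 21 for Rab4b, among them the omission of RESTko array a at NP (0.44 and 0.50) and of RESTwt array b at NP (0.41 and 0.52).

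The start regions of Rab21 and Rab5a both hold the palindrome TCACGTGA, present in 0.785% of the 32851 windows and in 2 of the 48 Rab genes. It was looked at after the values were seen. It includes CACGTG, found in 6.02% of all windows and also in Rab20, Rab23 and Rab27a. The cAMP response element TGACGTCA was found in 1.55% of all windows and in Rab25 and Rab5a. The match is shown with its neighbours, palindrome in capitals, at chr10:115315605-115315632 (minus strand, 23 bases before the start) and chr17:53479128-53479155 (plus strand, 88 bases before the start), from RefSeq on GRCm38.p6.
Rab21: cccaccgcggTCACGTGAcgaggggtgt
Rab5a: cccggggatgTCACGTGActtcggcccc
The match describes letters only, and binding was not measured.

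Rab8a and Rab4a were lower in RESTko cells, and both lie on chromosome 8. Rab8a, of polarised exocytosis and the cilium, gave 9.45, 9.37 and 9.44 against 9.82, 9.77 and 9.71 at ES, and 9.52, 9.56 and 9.43 against 9.90, 10.04 and 9.98 at NP. All RESTko arrays were lower, by 0.34 and 0.47 (differences -0.34 and -0.47, SE 0.07 each, adjusted p = 0.00256 and 0.000254, limma). Rab4a, of fast recycling from early endosomes, gave 7.38, 7.26 and 7.59 against 7.93, 7.76 and 7.72 at ES, a difference of -0.40 (adjusted p = 0.0204). Its call ended without RESTko a (-0.38), RESTko b (-0.32) or RESTwt a (-0.33). Among genes at or above the median mean signal, the 567 of chromosome 8 had a median difference of -0.25 at ES and -0.29 at NP. The medians of the other autosomes, taken likewise, lay between 0.00 and 0.05 and between 0.03 and 0.07. That of the X chromosome was -0.15 at ES and 0.01 at NP. The centring below used all measured genes of each chromosome, dim ones included, and so need not remove the whole of the chromosome 8 shift. After each chromosome was centred, Rab8a gave -0.19 at ES (adjusted p = 0.139) and -0.28 at NP (adjusted p = 0.0316), and Rab4a -0.24 at ES (adjusted p = 0.221). Rab3a and Rab20 are on chromosome 8 as well. Rab3a was not called at ES or NP (-0.41 and 0.26), and after centring gave -0.26 and 0.45, also not called.

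Between NP and TN the control changes from RESTwt to RESThet, so an interaction there also holds that difference. With this limit, 6 Rab genes were called, against 3.91% of all genes tested, 2 above 0 (1.4%) and 4 below (2.51%). Rab3c (-1.67, SE 0.36, adjusted p = 0.0129), Rab39 (-0.93, SE 0.16, adjusted p = 0.00224) and Rab3b (-0.85, SE 0.16, adjusted p = 0.00439, limma) had genotype differences above 0 at NP and of 0.05, 0.07 and -0.27 at TN. For Rab27b the interaction was 0.65 and for Rab8a 0.41 (adjusted p = 0.00680 and 0.0208). Rab31 gave -0.54 (adjusted p = 0.0395). The Rab31 call ended in 14 of 21 settings, with 1 array left out in 7 of them, between -0.56 and -0.45: RESTko a, b or c or RESTwt b of NP, RESThet c of TN, or RESTko a or c of TN. That of Rab8a ended without RESTko c or RESTwt b of NP (0.38 each) or RESThet b (0.37) or RESTko b (0.38) of TN, and after chromosome centring (0.24).

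At TN the largest Rab difference by unadjusted p was Rab42, at 3.60, 3.61 and 3.72 in RESTko against 3.39, 3.25 and 3.27 in RESThet. It was not called (0.34, adjusted p = 0.141, limma). Rab2a, of the early secretory pathway, lay between 10.94 and 11.03 in RESTko and between 10.57 and 10.78 in RESThet, without overlap and not called (0.32, adjusted p = 0.166). The 7 neuron-enriched isoforms lay between -0.16 and 0.05 at TN and the 8 exocytic genes between -0.27 and 0.17. At ES the isoforms lay between -0.13 and 0.53 and at NP between -0.24 and 0.62. At either stage 0 of 7 were called by limma, against 9.24% of all genes at ES and 8.03% at NP. With so few genes such a count does not set them apart from all genes. Rab33a was the nearest at NP, at 5.95, 5.01 and 5.39 against 5.23, 4.38 and 4.90, with overlap (0.62, adjusted p = 0.0567). It passed the test without RESTko b (0.83) or RESTwt a (0.81), after quantile scaling (0.58) and without the dimmest 30% of genes (0.62). With a replicate block on the compared groups alone Rab33a passed too (0.62, adjusted p = 0.0123, limma). Rab39b passed at ES without RESTko c (0.75) or with array weights (0.70).

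Over the 59 genes the genotype differences at ES and NP, which share no arrays, had a Pearson's r of 0.52, beside 0.26 over all 19938 genes, as a description across genes. Of the 6 genes called at both stages, 4 had the same sign, Rab3c, Rab39, Rab28 and Rab8a, and Rab25 and Rab31 the opposite one.

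Genes that switch Rab proteins were counted by function. Of all genes tested, 5.19% were called higher and 4.05% lower at ES, and 4.32% and 3.71% at NP, the background for the counts that follow. Of 33 exchange factors measured, 1 was called higher and 3 lower at ES, and 4 higher at NP. Madd, the exchange factor of Rab3 and Rab27, was higher in RESTko by 1.01 at ES (means 7.16 and 6.15, adjusted p = 2.95e-05) and by 0.46 at NP (7.22 and 6.76, adjusted p = 0.0248, limma). Rab3il1, an exchange factor of Rab8 that binds Rab3a, was lower at ES (-0.56, adjusted p = 0.00160). Ccz1 and Dennd1a were lower at ES too (-0.31 and -0.30), and Dennd6b, Dennd5b and Hps1 higher at NP (0.39, 0.34 and 0.31).

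Of 17 effectors of the exocytic Rab genes, 1 was higher and 1 lower at ES, and 4 were higher and 2 lower at NP. Rims2, which ties Rab3 to the release site of synaptic vesicles, was higher by 0.70 at ES (means 7.27 and 6.57, adjusted p = 3.87e-05) and by 1.12 at NP (SE 0.09, adjusted p = 2.41e-07, limma). Its paralog Rims1 was lower at ES (-0.46, adjusted p = 0.0173) and, in the control cells, had the largest rise of the list into TN, 4.47. The synaptic vesicle protein Syn1 and Rims3 were higher at NP (0.80 and 0.44). Exph5, an effector of Rab27, was lower there (-0.67, means 2.94 and 3.60), with signals that may lie near background.

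Of 35 GTPase-activating proteins, 4 were higher and 4 lower at ES and 2 higher at NP, Tbc1d30 by 0.95 and Sgsm1 by 0.67. At ES the largest were Tbc1d8b and Tbc1d9, lower (-0.79 and -0.61), and Tbc1d7 and Tbc1d13, higher (0.56 and 0.44). Tbc1d8b is on the X chromosome and Tbc1d9 on chromosome 8, both with medians below 0 in this comparison. Of 20 other effectors 0 were called at ES and 1 at NP, Rab11fip4, of Rab11 (0.42). Of 7 genes of prenylation and recycling 1 was called at ES, the dissociation inhibitor Gdi2 (0.31), and 0 at NP by limma. At TN 0 genes of any of these 5 lists were called by limma, against 1.16% of all genes tested. From ES to NP in RESTwt cells 5 of the 7 prenylation and recycling genes fell and 1 rose. Of all genes tested at this step 36.1% were called lower and 31.0% higher. Among those that fell were Rabggtb, a subunit of the prenyl transferase, by 1.34, and Chm, which presents Rab proteins to it, by 1.17. Chm is on the X chromosome, whose genes at or above the median mean signal had a median of -0.36 at this step. From NP to TN 24 of 35 GTPase-activating proteins rose and 7 fell, and 10 of 17 exocytic effectors rose and 2 fell, in the RESThet/RESTwt comparison, against 43.2% of all genes called higher and 29.9% lower. The medians of both lists were 0.45 and 0.57, beside 0.14 over all genes, and the quantile scaling that turns the split of all genes at this step was not applied to these counts.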

How the data were processed

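The deposited values are log2 signals per probe set, with 1 column per array. The submitters' processing notes name oligo 1.14.0, and neither the background correction nor the scaling between arrays is stated there, so a scaling that differs by stage would enter every stage step. Each gene was taken from the probe set of highest mean among those with a single symbol. Linear models were fitted on each platform with limma 3.58.1 in R 4.3.3 over all groups, with moderated variances and Benjamini-Hochberg adjustment over all genes, and were tested on simulated data. Alternatives were quantile scaling, leaving out the dimmest 30% of genes, other handling of probe sets, array weights, chromosome centring, the compared groups alone, a replicate block and omission of each array. Promoter windows are RefSeq entries on GRCm38.p6, matched by symbol for 48 of 59 genes. The genes named were those called between genotypes or in an interaction, the 8 largest called steps in each direction, the exocytic and neuron-enriched lists, those whose called steps differed in sign between strains, and up to 4 called partners per list. The members, lists and motifs were chosen with earlier results of these data known. The main model did not use the replicate letters, and the labels do not tie a letter to a shared batch. Between the genotypes at NP, deviations of same-lettered arrays from their group means correlated with Pearson's r of 0.40 (a), 0.31 (b) and 0.01 (c). In the other comparisons of the larger platform r lay between -0.26 and 0.15. The main tests at NP leave this likeness aside.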

Additional observations from a re-analysis of the deposited data

Results flagged for a closer look

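For 12 tests the interaction term, the change of the genotype difference between stages, was called (limma, 3 arrays a group). Of all genes tested 4.87% were called for NP against ES and 3.91% for TN against NP. The difference at NP minus that at ES was -1.03 for Rab25, -0.72 for Rab27b, 0.76 for Rab31, -0.70 for Rab38, 0.53 for Rab4b and 0.46 for Rab2b. The difference at TN, where the control is RESThet, minus that at NP was -0.93 for Rab39, -0.85 for Rab3b, 0.65 for Rab27b, -1.67 for Rab3c, 0.41 for Rab8a and -0.54 for Rab31. Of 21 settings tried, Rab2b was called in 7, Rab4b in 10, Rab8a in 14 and the last Rab31 term in 7. The other terms were called in all of them.

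In 4 genes every array of the mixed strain lay on the opposite side of a stage step from the control arrays of the 129 strain. Into NP the mixed strain gave -0.81 for Rab15, -0.87 for Rab30 and -0.68 for Rab3d, and into TN it gave -0.54 for Rab11a. These differences between strains were not tested, and the platforms use different probe sets.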

How the results depend on the processing

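Some setting or omitted array ended 5 of the 9 Rab calls at ES, 8 of 13 at NP and 2 of 6 in each interaction, with no reversal among them. With array weights 16 Rab genes were called at ES, and with the compared groups alone 6 at NP. The shares of all genes called under each setting are not given here. These counts and those below therefore describe only how the Rab calls moved. Omission of single arrays gave 6 to 9 calls at ES, 7 to 13 at NP, 0 at TN, 4 to 6 and 4 to 7 for the interactions, and 17 to 23 for the mixed-strain step into NP. The other stage steps ranged from 38 to 48 in the 129 strain and from 33 to 36 for the mixed-strain step into TN. Quantile scaling turned the step into NP to 0.17 for Rab10 and -0.11 for Rab15 in RESTwt, and for Rab40c to -0.18 in RESTwt and -0.19 in RESTko. The mean over a gene's probe sets, which brings in probe sets that run otherwise, turned the mixed-strain steps to 0.47 (Rab3a into NP), 0.13 (Rab11a into TN) and 0.76 (Rab27b into TN), and Rab11b in RESTko to -0.07. Apart from the probe sets, the cause was not tested. With the replicate block 8 Rab genes were called at ES, 13 at NP and 0 at TN, 6 and 5 in the interactions, and the stage counts were as without it. With no counts behind the signals, the number of arrays limits the precision.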
